A study of Mus musculus with 2 samples.

Results

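The genes described here encode ion channels and their auxiliary subunits, among them Chrna9. They were taken as all probes, control spots left out, whose gene name in the array files begins with the stem of a potassium (Kcn), calcium (Cacna, Cacnb, Cacng), sodium (Scn), nicotinic (Chrn), GABA (Gabr), AMPA, NMDA or kainate glutamate (Gria, Grin, Grik), TRP (Trpv, Trpm, Trpc), P2X (P2rx) or chloride (Clcn) channel family. This gave 340 probes and 204 of the 27669 gene names on the array. The stems also take in a few genes that are no channel, such as the noncoding RNA Kcnq1ot1 and the TRPC4-associated protein gene Trpc4ap, and they miss 14 probes that the files list under a provisional or older name. Of those 14 probes 2 could be tested as below, and neither passed (adjusted p = 0.578 and 0.582).

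Two-colour microarrays compared thymic stromal cells of C57BL/6 mouse fetuses after 72 h in a reaggregation thymus organ culture (RTOC, a pellet of cells on a membrane) with such cells after 72 h on a culture dish (2D culture). All cells came from thymic lobes held in organ culture with 1.35 mM deoxyguanosine, which removes lymphoid cells, and then dispersed with enzymes. One array held cells of E15.5 fetuses after 9 days of organ culture and the other cells of E14.5 fetuses after 8 days, so that the stage of the fetuses, their days in organ culture and the array itself cannot be told apart. On both arrays RTOC was labelled with Cy5 and 2D culture with Cy3, with no dye swap, so that a dye effect cannot be told apart from the culture, and how many animals were pooled was not given in the sources used here.

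Ion channels are membrane proteins that open to let potassium, sodium, calcium or chloride pass, and are gated by voltage, by a ligand such as acetylcholine, or by stretch, heat or lipids. They are best known from nerve and muscle, but epithelial cells, vessel cells and leukocytes use them to set membrane potential, to move salt and water and to let calcium in as a signal. Most are built of a pore-forming subunit with auxiliary subunits that set gating and traffic. The α9 nicotinic subunit, encoded by Chrna9, is best known from cochlear hair cells, where calcium that enters through receptors of α9 and α10 opens the small-conductance potassium channel encoded by Kcnn2.

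Most ion channel probes were not well above background in either culture. On the E14.5 array, 89 of 340 probes (26.2%) in 2D culture and 104 (30.6%) in RTOC were well above background. The corresponding numbers on the E15.5 array were 89 (26.2%) and 128 (37.6%). "Well above background" is the flag that the scanner software set for each spot and dye. Over all 41174 probes the shares were 53.1% in 2D culture and 56.3% in RTOC (E14.5), and 53.5% and 60.9% (E15.5), so that in each of the 4 channels of the arrays (2 dyes on 2 arrays) the share of ion channel probes was below that of all probes. With a weaker flag, a signal that is positive and significant against the local background, the ion channel shares were 51.8%, 52.4%, 49.7% and 60.9% in the same order, and those of all probes 70.7%, 72.9%, 70.4% and 76.8%.

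**Figure D1:**
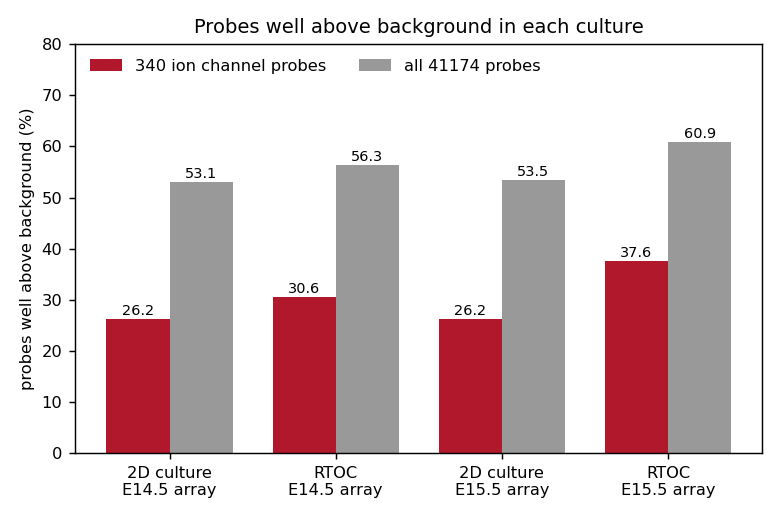
Share of probes well above background (%, vertical axis) in each culture on each array, for the 340 ion channel probes (red) and all 41174 probes (grey). The ion channel share lies between 26.2% and 37.6%, below that of all probes in each culture, and is highest in RTOC on the E15.5 array.

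Counted by gene, 99 of the 204 genes had no probe above background in any channel and 56 had one in all 4 channels. Above background in RTOC on both arrays and in 2D culture on neither were 13 genes, and the reverse pattern was found for 0 genes. Over all 27669 gene names, 9994 (36.1%) were above background in no channel, 13992 (50.6%) in all 4, 1002 (3.62%) in RTOC alone on both arrays and 134 in 2D culture alone, beside 48.5%, 27.5% and 6.37% of the ion channel genes for the first 3 patterns. The families differed in how much of them was measurable. Of the chloride channel and transporter probes, 9 of 12 were above background in each channel, and of the P2X receptor probes 5 of 9 (55.6%). The voltage-gated potassium pore probes gave 15.1% in 2D culture on both arrays and 20.8% in RTOC on both. Of the 29 GABA receptor probes, between 1 and 3 were above background in a channel.

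The difference between the cultures was tested for 81 of the 204 genes, those with a probe above background in at least 1 channel on each array, and the brightest such probe was used. The other 123 genes were not tested. The test was limma's moderated test of the log2 ratio of RTOC over 2D culture on 2 arrays, with Benjamini-Hochberg adjustment over all 23685 probes tested and a threshold of 0.05. Of these, 26 ion channel genes were higher in RTOC (32.1% of those tested) and 11 were lower (13.6%), while over all 16136 genes tested 16.6% were higher and 12.0% were lower. When the pairing of the cultures within an array was not used, 21 were higher and 3 lower. The filter favoured a higher call for a gene that reached the test only because it was bright in RTOC. It did not force one, since Kcnh2, measured in RTOC alone, had a log2 ratio of 0.49 and did not pass (adjusted p = 0.194). Of the 26 higher genes, 12 were above background in 2D culture on neither array and 3 more on 1 array only. For these 12 the size is given as a bound from signals after normexp background correction, loess and Aquantile and the adjusted p from the quantile normalized fit, which sets RTOC against a signal at background. After normexp and loess, 1 of the 12, Chrna9, still passed and the other 11 did not (adjusted p from 0.0511 to 0.297). Among the 55 genes whose probe was above background in all 4 channels, 11 were higher (20.0%) and 8 were lower, and over the 13963 genes of the array with such a probe the shares were 12.9% and 11.8%. The median log2 ratio was 0.33 over the 81 genes and 0.05 over all genes tested. It was -0.16 and -0.01 where all 4 channels were above background, and 0.16 over the 81 genes when the 13 genes measured in RTOC alone were set to the lowest change their signals allow. With 2 arrays, p-values measure no spread but that between the arrays, estimated from the gene's own values and from all probes together. The labels do not say whether the cultures shared animals.

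**Figure D2:**
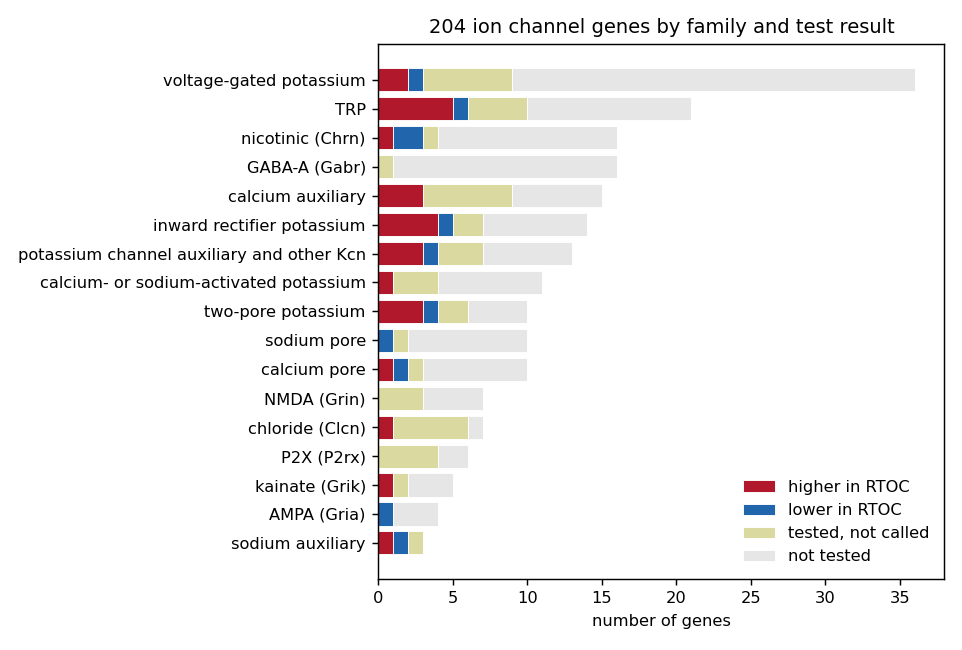
Number of genes (horizontal axis) in each ion channel family, split into those higher in RTOC (red), lower in RTOC (blue), tested but not past the threshold (yellow) and not tested (grey). Of 204 genes 123 were not tested. The TRP and inward rectifier potassium families hold the most genes higher in RTOC, with 5 of 10 and 4 of 7 tested. Of these, 3 and 2 were above background in all 4 channels. Over all genes tested 16.6% were higher.

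The probes of the genes on which the results turn are shown first, since several genes were read by more than one of them. Each line gives the first 30 of the 60 bases of a probe as the array files hold it, 5′ to 3′; where in the transcript a probe lies was not determined here. No pair of probes of the same gene shared a run of more than 7 bases over their full length, so that the probes of a gene differ in sequence.
Chrna9, probe A_51_P381069: tgtcatgaccgtcttgatcatagcaagagc
Chrna9, probe A_52_P85903: aaagaaggaactgagaaaactcctaaagaa
Kcne3, probe A_51_P336599: gaactcaactcaaccatatcaagccacagt
Kcne3, probe A_52_P243425: gtggacaaacgtagtgacccctatcatgtg
Kcnj8, probe A_51_P312795: actgtgtcctgatgactgagagacaatccg
Kcnj8, probe A_52_P225898: cacgggtcatcatgaatatgttcaaatcta
Trpc1, probe A_51_P196019: gggaatgttcctccttgttctgttttcctt
Trpc1, probe A_52_P35561: ccccttttaaatgtcggtattttttattag
Trpc1, probe A_52_P547315: cgctgctagagatgtaaagcactgtttatt

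Of the ligand-gated channels, Chrna9 was measured in RTOC and not in 2D culture. RefSeq places it on chromosome 5 from 65934854 to 65977486 in the assembly GRCm38.p6. Its brightest probe, A_52_P85903, had a quantile normalized log2 signal of 9.31 (E14.5) and 9.39 (E15.5) in RTOC, and of 5.54 and 5.40 in 2D culture, where it was not well above background on either array. The other probe, A_51_P381069, gave 10.79 and 10.51 in RTOC, and 4.03 and 4.20 in 2D culture, again not well above background. As a bound from the normexp, loess and Aquantile signals, Chrna9 was at least 2.17-fold higher in RTOC by the brightest probe and at least 4.18-fold higher by the other, where the dim side is held at the lowest signal that counted as well above background. The adjusted p of the quantile normalized fit was 0.00161 for each, and after normexp and loess it was 0.0213 and 0.0129. Both probes and both arrays thus gave Chrna9 as higher in RTOC. The size of the change rests on the bound, because the fitted log2 ratios, 3.88 ± 0.15 (SD, n = 2) and 6.53, were taken against a 2D signal at background.

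No other nicotinic subunit gene was called higher in RTOC. The α10 subunit gene Chrna10 was above background in no channel, nor was Chrna7. Of 16 nicotinic genes 4 were tested, and 2 were lower in RTOC. Chrnb1, the β subunit of the muscle receptor, had log2 signals of 8.36 (E14.5) and 9.27 (E15.5) in 2D culture and of 6.44 and 6.61 in RTOC. The groups did not overlap, and the difference of -2.29 ± 0.53 (SD, n = 2), 4.90-fold, passed the test (adjusted p = 0.00546). After normexp and loess the difference was -0.68 and did not pass (adjusted p = 0.0738). Chrng, the γ subunit of the fetal muscle receptor, went from 6.79 and 6.84 in 2D culture to 5.54 and 6.06 in RTOC, where it was above background on the E15.5 array only, and its difference of -1.01 ± 0.33 passed the test narrowly (adjusted p = 0.0427). It no longer did after normexp and loess (0.458), with median centring (0.105), with the series values as deposited (0.0558), with no replicate block (0.0746), with trend and robust fitting (0.0923), with no filter (0.164) or by the methods' t-test (0.382). Chrne, the subunit of the adult muscle receptor, had a log2 ratio of -0.40 and did not pass (adjusted p = 0.279). Of the 12 skeletal muscle markers 6 were tested, with a median log2 ratio of 0.14. The muscle actin genes Acta1 and Actc1 had ratios of -3.39 and -2.78 and passed as lower, whereas Myod1, Ttn, Tnnc2 and Mylpf had ratios of 0.17, 0.11, 0.57 and 0.21 and did not pass. Myf5, Myf6, Ckm, Myh3 and Tnnt3 were above background in no channel on their brightest probe. The log2 summed signal of that list was 16.4 (E14.5) and 15.4 (E15.5) in 2D culture and 13.65 and 12.69 in RTOC. Actc1 alone had 16.14 and 15.08 in 2D culture and 13.36 and 12.29 in RTOC, so that the sum mostly follows this gene. The part of muscle cells in the values of the muscle receptor subunits was not tested. In RNA of whole cultures, fewer cells of a type and less RNA per cell cannot be told apart.

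Of the 23 genes listed for the making, breakdown and clustering side of cholinergic signalling, 10 were tested, 3 were higher in RTOC and 2 lower. Ache, which encodes acetylcholinesterase, rose by 3.28 on the log2 scale (adjusted p = 0.00244). Lypd1, a prototoxin that binds nicotinic receptors, rose by 3.21, and Lrp4, the agrin receptor, by 1.05. Agrn, which encodes agrin, fell by 1.19 and Lynx1, another prototoxin, fell by 1.54. Lynx1 did not pass after normexp and loess (adjusted p = 0.113). The choline acetyltransferase gene Chat and the clustering genes Rapsn and Musk were not tested, and Rapsn and Musk were above background in no channel. The choline transporter gene Slc5a7 was not tested either, since it was above background on the E15.5 array only, with a log2 signal of 9.76 in 2D culture and 6.01 in RTOC. Of the markers of tuft cells, an epithelial type that makes acetylcholine, Pou2f3, Gfi1b and Il25 were above background in no channel on their brightest probe, whereas Dclk1, Alox5ap, Hpgds, Ptgs1 and Gng13 were in all 4. Alox5ap and Hpgds were 2.34-fold and 4.58-fold higher in RTOC, Ptgs1 was 3.23-fold lower, and the other 2 did not pass. The log2 summed signal of the list was 12.85 (E14.5) and 12.09 (E15.5) in 2D culture and 12.27 and 12.0 in RTOC, and the part of these cells was not tested.

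Of the glutamate and purine receptors, Gria3, an AMPA receptor subunit, was lower in RTOC. Its brightest probe had log2 signals of 10.70 (E14.5) and 10.54 (E15.5) in 2D culture and of 9.26 and 9.37 in RTOC, a difference of -1.31 ± 0.19 (SD, n = 2; adjusted p = 0.0184). Its other tested probes gave -1.71 (adjusted p = 0.0192) and -0.42 (adjusted p = 0.303). Grik4, a kainate receptor subunit, was higher in RTOC, with signals of 7.08 and 9.45 in RTOC and of 5.42 and 7.04 in 2D culture, where it was above background on the E15.5 array only (adjusted p = 0.00778). It did not pass after normexp and loess (adjusted p = 0.108) or without the pairing within an array (0.171). The RTOC signal on the E14.5 array and the 2D signal on the E15.5 array were nearly equal, so that only within an array was RTOC clearly the higher. The 3 NMDA, 4 P2X and 1 GABA receptor genes that were tested had log2 ratios between -0.43 and 0.90, and 0 of them passed limma's test, 0 had an unadjusted p under 0.05, and 0 passed with trend and robust fitting. With median centring 1 of them, the NMDA receptor gene Grin3a, was called higher, with a log2 ratio of 1.11.

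**Figure D3:**
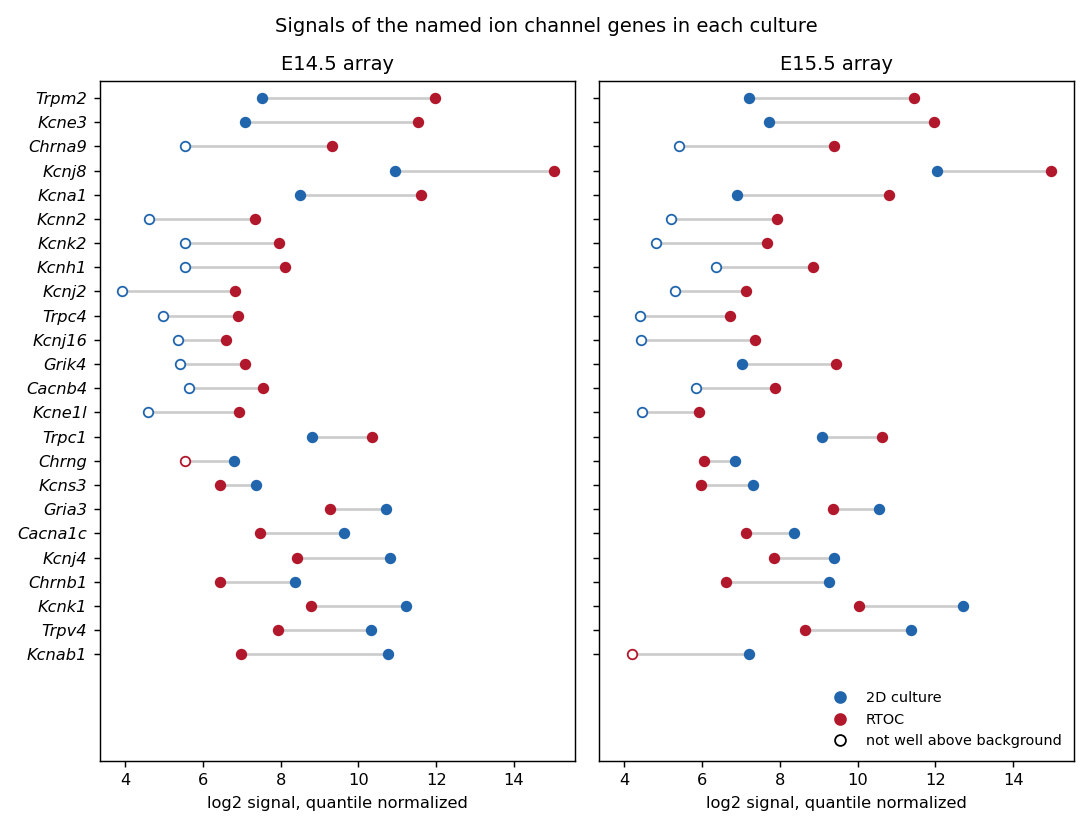
Quantile normalized log2 signal (horizontal axis) of 24 named ion channel genes in 2D culture (blue) and RTOC (red) on the E14.5 (left) and E15.5 (right) arrays, ordered by the mean log2 ratio; open points were not well above background. Chrna9 is open in 2D culture on both arrays, whereas Trpm2, Kcne3, Kcnj8 and Kcna1 are filled in all 4 channels; signals of different genes come from different probes and are not to be compared.

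Inward rectifier potassium channels pass potassium more readily into the cell than out of it. Kcnj8 encodes Kir6.1, the pore of the ATP-sensitive potassium channel of vascular smooth muscle and pericytes, and lies on chromosome 6 from 142564837 to 142571614. The brighter of its probes had log2 signals of 10.95 (E14.5) and 12.03 (E15.5) in 2D culture and of 15.02 and 14.98 in RTOC. Both RTOC values lay above both 2D values, and the difference was 3.51 ± 0.80 (SD, n = 2), or 11.4-fold (adjusted p = 0.00286). The other probe gave the same mean difference, 3.51 (adjusted p = 0.00315). Abcc9, whose product SUR2 is the regulatory partner of Kir6.1, was higher in RTOC as well, by 1.76 on the log2 scale (adjusted p = 0.00918), and so was the pericyte marker Rgs5, by 3.25. Of the 10 smooth muscle and pericyte markers tested, these 2 were higher and 6 were lower, among them Tagln (-4.33), Cnn1 (-4.02), Cspg4 (-2.67) and Mcam (-2.60), with Acta2 also lower. The log2 summed signal of the whole list was 19.2 and 19.12 in 2D culture and 16.22 and 15.75 in RTOC, Des alone was above background in no channel, and the part of these cells in the Kcnj8 values was not tested.

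The other inward rectifiers split. Kcnj10, which encodes Kir4.1, had log2 signals of 6.54 and 7.31 in 2D culture and of 8.25 and 8.96 in RTOC, and rose by 1.68 (adjusted p = 0.00814, and 0.0608 after normexp and loess). Kcnj16 encodes Kir5.1, which pairs with Kir4.1, and was above background in RTOC alone, at 6.60 and 7.35, at least 1.23-fold higher (adjusted p = 0.0218, and 0.186 after normexp and loess). Kcnj2, the gene of Kir2.1, was likewise measured in RTOC alone, at 6.82 and 7.13, at least 1.21-fold higher (adjusted p = 0.00728, and 0.165 after normexp and loess). Kcnj4, the gene of the related Kir2.3, was lower in RTOC. Its log2 signals were 10.81 and 9.39 in 2D culture and 8.41 and 7.85 in RTOC, a difference of -1.97 ± 0.61 (adjusted p = 0.00963). Kcnj4 did not pass after normexp and loess (adjusted p = 0.0685) or without the pairing within an array (0.0582). Kcnj15 had a log2 ratio of 1.25 and did not pass (adjusted p = 0.057).

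Of 36 voltage-gated potassium pore genes 9 were tested, with 2 higher and 1 lower in RTOC. Kcna1 encodes Kv1.1, a low-threshold delayed rectifier. It was measured in all 4 channels, with log2 signals of 8.51 (E14.5) and 6.91 (E15.5) in 2D culture and of 11.60 and 10.80 in RTOC, and its difference of 3.49 ± 0.57 was 11.2-fold (adjusted p = 0.00228). Kcnh1, the gene of the ether-à-go-go channel, was measured in RTOC alone, at 8.11 and 8.86, at least 1.59-fold higher (adjusted p = 0.00286, and 0.0511 after normexp and loess). Kcns3 encodes a silent subunit that modifies other channels, and was lower in RTOC by 1.13 (adjusted p = 0.029), with 7.38 and 7.30 in 2D culture and 6.44 and 5.98 in RTOC. After normexp and loess its ratio was -0.18 and did not pass (adjusted p = 0.354), nor did it without the pairing within an array (0.0532). Among the auxiliary subunits, Kcne3 and Kcnab1 differed in opposite directions. Kcne3 encodes a single-pass subunit that keeps the epithelial channel KCNQ1 open. It had log2 signals of 7.08 and 7.73 in 2D culture and of 11.54 and 11.96 in RTOC, a difference of 4.35 ± 0.16 (SD, n = 2), or 20.4-fold (adjusted p = 0.00161), and its other probe gave 4.27. Kcnq1 itself had a log2 ratio of 0.92 and just missed the threshold (adjusted p = 0.0508), and its other tested probe gave -0.03. Kcnab1 encodes a cytoplasmic β subunit of Kv1 channels, and had log2 signals of 10.76 and 7.22 in 2D culture and 6.98 and 4.21 in RTOC, the last not well above background. The RTOC signal on the E14.5 array nearly equalled the 2D signal on the E15.5 array, and within each array RTOC was lower, with a mean difference of -3.40 ± 0.54 (adjusted p = 0.00233). The difference went to -1.08 after normexp and loess and did not pass (adjusted p = 0.157), nor did it without the pairing within an array (0.144). Kcne1l was measured in RTOC alone, at 6.94 and 5.92 (at least 1.12-fold higher, adjusted p = 0.0112, and 0.233 after normexp and loess).

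Two-pore potassium channels carry the background leak that sets the resting potential. Kcnk1, which encodes TWIK-1, was lower in RTOC, with log2 signals of 11.22 (E14.5) and 12.71 (E15.5) in 2D culture and of 8.78 and 10.04 in RTOC, a difference of -2.55 ± 0.16 (SD, n = 2), or 5.86-fold (adjusted p = 0.00291). Without the pairing within an array Kcnk1 just missed the threshold (adjusted p = 0.0504). Its relative Kcnk6, the gene of TWIK-2, was 2.14-fold higher (adjusted p = 0.0322). Kcnk2 and Kcnk4 encode the stretch-sensitive channels TREK-1 and TRAAK. Both were measured in RTOC alone, and were at least 1.38-fold and at least 1.12-fold higher there (adjusted p = 0.00298 and 0.0223, and 0.0785 and 0.297 after normexp and loess). Kcnn2, the small-conductance calcium-activated channel named above with the α9 receptor, was also measured in RTOC alone, at 7.33 and 7.94 over its 10 spots, and was at least 1.29-fold higher (adjusted p = 0.00247, and 0.106 after normexp and loess).

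The TRP family, cation channels that pass calcium in answer to lipids, heat, stretch or oxidants, held 5 genes higher in RTOC and 1 lower among 10 tested. Trpm2 encodes a channel opened by ADP-ribose under oxidative stress and is known from leukocytes. It lies on chromosome 10 from 77907722 to 77969909. Its log2 signals were 7.51 (E14.5) and 7.20 (E15.5) in 2D culture and 11.98 and 11.46 in RTOC, and the difference of 4.37 ± 0.15 (SD, n = 2), or 20.6-fold, passed the test (adjusted p = 0.00161). The macrophage markers Adgre1, Aif1, Lyz2 and Csf1r, 4 of 7 in that list, were higher in RTOC too, by 8.05-fold, 6.61-fold, 2.73-fold and 2.14-fold. Cd68, Mrc1 and Itgam of the list had log2 ratios of 0.61, 0.59 and -0.61 and did not pass. The arrays gave Mrc1 opposite signs, and Itgam was lower on each. All 7 were above background in each channel, their log2 summed signal was 16.08 and 15.81 in 2D culture and 17.45 and 17.77 in RTOC, and their part in the Trpm2 values was not tested. Trpv4, a channel opened by swelling, warmth and stretch, was lower in RTOC, with 10.33 and 11.38 in 2D culture and 7.94 and 8.65 in RTOC, a difference of -2.56 ± 0.24, or 5.90-fold (adjusted p = 0.00301).

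Of the receptor-operated TRPC channels, Trpc4 was measured in RTOC alone (at least 1.14-fold higher, adjusted p = 0.00486, and 0.259 after normexp and loess). Trpc1 was the only ion channel gene with a called probe and a tested probe of the other sign. Its brightest probe, A_52_P547315, had 8.82 and 9.08 in 2D culture and 10.35 and 10.64 in RTOC, and rose by 1.55 (adjusted p = 0.0105). Probe A_52_P35561 had 6.43 and 7.23 in 2D culture and 10.11 and 9.64 in RTOC, and rose by 3.04 (adjusted p = 0.00458). Probe A_51_P196019 had 7.58 and 7.42 in 2D culture and 7.17 and 7.50 in RTOC, with a mean ratio of -0.16 that did not pass (adjusted p = 0.674). All 3 were above background in every channel, so that the direction for Trpc1 as a gene depends on the probe. Trpc2 rose by 1.14 by its brightest probe (adjusted p = 0.0247), and its other tested probe had a ratio of 0.10 and did not pass (adjusted p = 0.809).

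Of the voltage-gated calcium and sodium channels, the pore genes mostly lacked signal, with 3 of 10 calcium and 2 of 10 sodium pore genes tested. Cacna1c encodes the L-type pore Cav1.2 of heart and smooth muscle. It had log2 signals of 9.64 and 8.36 in 2D culture and of 7.47 and 7.12 in RTOC, and fell by 1.70 (adjusted p = 0.0163), and its other probe fell by 1.22 (adjusted p = 0.0443). After normexp and loess neither probe passed (adjusted p = 0.115 and 0.291). Without the pairing within an array the brightest probe did not pass either (adjusted p = 0.0636). Cacna1g, the T-type pore Cav3.1, rose by 1.01 (adjusted p = 0.042, and 0.115 after normexp and loess). The values of Cacna1c stand beside those of the smooth muscle and pericyte markers given above (6 of 10 tested lower), whose part in them was not tested. The auxiliary subunit genes Cacnb4 and Scn2b were measured in RTOC alone and were at least 1.36-fold and at least 1.26-fold higher (adjusted p = 0.0052 and 0.0198, and 0.0922 and 0.155 after normexp and loess). Cacna2d2, an α2δ subunit, was measured in all channels, with 11.55 and 11.98 in 2D culture and 13.47 and 12.91 in RTOC, and rose by 1.43 (adjusted p = 0.0282, and 0.0583 after normexp and loess).

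Of 7 chloride channel genes 6 were above background throughout, and 1 changed. Clcn2, a plasma membrane chloride channel, had log2 signals of 9.59 and 10.13 in 2D culture and of 11.26 and 10.98 in RTOC, and rose by 1.26 (adjusted p = 0.0326), with 1.31 by its other probe (adjusted p = 0.0234). After normexp and loess the brightest probe did not pass (adjusted p = 0.0567) and the other did (0.0418). The endosomal and lysosomal exchanger genes Clcn3, Clcn4-2, Clcn5 and Clcn7 had log2 ratios of -0.16, -0.30, -0.83 and -0.61 and did not pass. The second probe of Clcn5 was lower by 1.85 (adjusted p = 0.00985), against an adjusted p of 0.0599 for the brightest. Not called, the family's remaining tested gene Clcn1 had a ratio of 0.15.

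**Figure D4:**
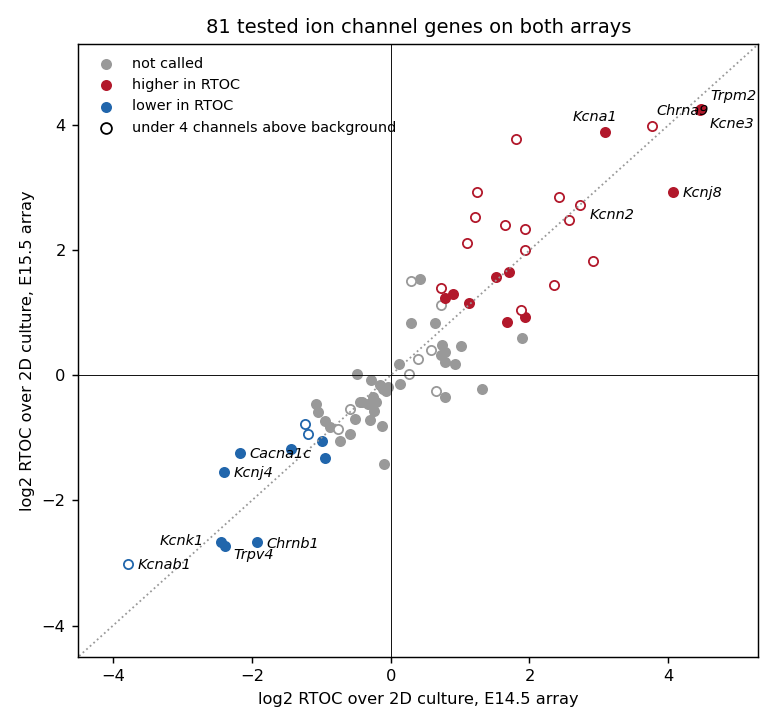
Log2 ratio (RTOC over 2D culture) for each of the 81 tested ion channel genes on the E15.5 array (vertical axis) against the E14.5 array (horizontal axis), with genes higher in RTOC in red, lower in blue and others in grey; open points had fewer than 4 channels above background and the dotted line marks equal ratios. Every called gene lies on the same side of 0 on both arrays, Trpm2 and Kcne3 sit together at the top right, and Kcnab1 lies farthest to the lower left.

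The arrays gave 5 of the 81 tested genes opposite signs, and none of these 5 passed the test. No ion channel gene changed by at least 2-fold in opposite directions on the 2 arrays.

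Of 82 listed channel genes outside these families 47 were tested. Of these, 4 were higher and 10 lower in RTOC, with a median log2 ratio of -0.33, beside 16.6% higher and 12.0% lower and a median of 0.05 over all genes tested. The epithelial sodium channel subunit gene Scnn1a rose by 3.47 (adjusted p = 0.00221), and Scnn1b was measured in RTOC alone (at least 1.27-fold higher, adjusted p = 0.00363, and 0.162 after normexp and loess). Clic5, an intracellular chloride channel protein gene, rose by 5.05 (adjusted p = 0.00161), and the acid-sensing channel gene Asic1 was at least 1.25-fold higher (adjusted p = 0.00552, and 0.172 after normexp and loess). Among the lower genes were Ano1, a calcium-activated chloride channel (-2.62, adjusted p = 0.00379), Gabrp, the π subunit of the GABA receptor (-2.53, adjusted p = 0.00322), the stretch-activated Piezo2 (-2.22, adjusted p = 0.00392), and the volume-regulated anion channel genes Lrrc8a and Lrrc8d (-1.36 and -1.47). After normexp and loess Gabrp and Lrrc8a did not pass (adjusted p = 0.0779 and 0.0524).

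Other markers moved with the cultures beside the ion channel genes. Of 12 thymic epithelial markers, all above background in every channel, 10 were higher in RTOC, among them Ccl25 (6.96), Prss16 (5.29) and Foxn1 (2.65). Their log2 summed signal was 17.4 and 18.72 in 2D culture and 19.79 and 19.82 in RTOC. Epcam and Krt8 had ratios of -0.70 and 0.28 and did not pass. Of 10 endothelial markers 9 were higher, with 3 (E14.5) and 5 (E15.5) of the 10 above background in 2D culture and 9 and 10 in RTOC, and a log2 summed signal of 10.85 and 10.06 against 13.14 and 13.78. Of 10 neuron markers, 4 were tested and Tubb3 was lower (-1.53), whereas Elavl3, Snap25, Th and Dbh were among those above background in no channel. The log2 summed signal of the neuron list was 11.67 and 12.25 in 2D culture and 11.27 and 11.01 in RTOC. The fibroblast markers (11 tested) split into 4 higher and 3 lower, the T cell markers (6 tested) had 2 higher, the neuroendocrine and parathyroid markers (4 tested) 2 higher, the Schwann cell and glia markers (4 tested) 1 higher and 1 lower, and the tuft cell markers (5 tested) 2 higher and 1 lower. Which cells carried each ion channel RNA was not tested.

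The start regions of 3 genes that were higher in RTOC are shown, because Foxn1, the transcription factor of thymic epithelium, binds a DNA motif with the core ACGC. Each line is the 250 bases before a RefSeq start in GRCm38.p6, 5′ to 3′ on the strand of the gene, and capitals mark ACGC or its complement GCGT. They lie at chr5:65966874-65967123 (Chrna9, plus strand), chr6:142571615-142571864 (Kcnj8, minus strand) and chr10:77969873-77970122 (Trpm2, minus strand). The Chrna9 window precedes a start inside the span listed for the gene (65934854 to 65977486). The bases before the outer end of that span are not shown.
Chrna9: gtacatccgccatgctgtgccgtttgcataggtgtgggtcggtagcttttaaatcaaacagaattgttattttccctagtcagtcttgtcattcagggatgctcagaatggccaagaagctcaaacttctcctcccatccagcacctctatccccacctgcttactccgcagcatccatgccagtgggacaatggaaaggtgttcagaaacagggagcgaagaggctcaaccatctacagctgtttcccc
Kcnj8: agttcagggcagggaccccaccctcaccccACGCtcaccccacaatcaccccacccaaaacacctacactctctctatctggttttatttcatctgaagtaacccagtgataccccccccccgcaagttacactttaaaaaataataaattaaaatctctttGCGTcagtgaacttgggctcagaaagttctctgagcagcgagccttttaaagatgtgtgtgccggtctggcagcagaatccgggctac
Trpm2: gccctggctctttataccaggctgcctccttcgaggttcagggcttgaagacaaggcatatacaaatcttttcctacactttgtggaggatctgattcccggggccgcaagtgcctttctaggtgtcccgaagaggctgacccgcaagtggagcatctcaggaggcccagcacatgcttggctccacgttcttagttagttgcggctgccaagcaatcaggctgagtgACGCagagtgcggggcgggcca

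Chrna9 held 0 matches in this window, Trpm2 held 1 and Kcnj8 held 2. Over all 32851 starts listed, 49.8% held at least 1 match on either strand, and over the 204 starts of the 155 ion channel genes found there the share was 54.4%. A match of 4 letters is a description of the sequence and not a binding site.

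**Figure D5:**
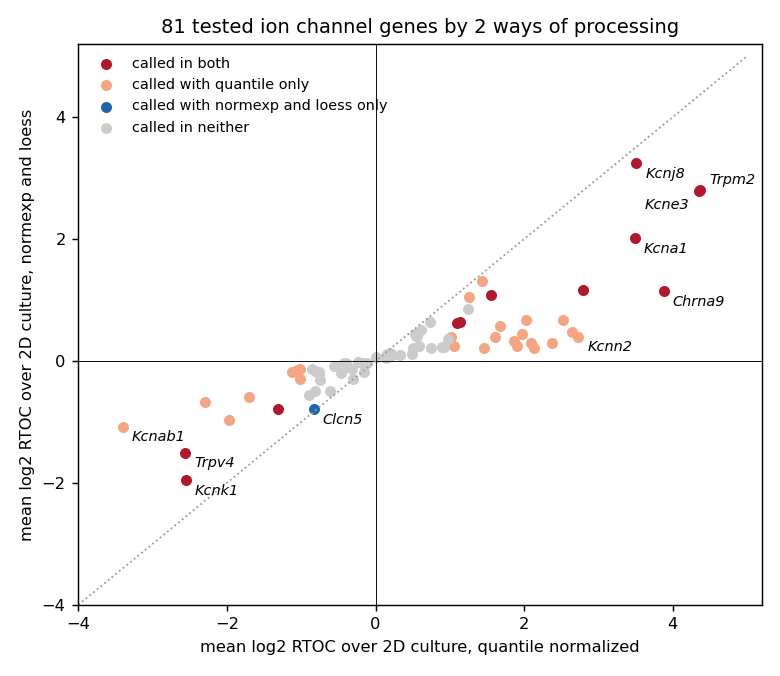
Mean log2 ratio (RTOC over 2D culture) for each of the 81 tested ion channel genes after normexp background correction and loess (vertical axis) against quantile normalization of the processed signals (horizontal axis), coloured by which of the 2 calls the gene; the dotted line marks equal ratios. Ratios of genes with a channel not above background, such as Kcnn2 and Kcnab1, shrink toward 0 after normexp and loess, while the bright Kcnj8 stays near the line. Ratios of some genes above background in all 4 channels shrink as well, such as Chrnb1 (-2.29 to -0.68).

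The size of the differences depended on the processing. The normexp and loess setting started from the mean spot signals in place of the processed ones and used loess in place of quantile normalization. The part of each step in the change of size was not tested. After normexp background correction, which adds an offset of 50 to the signals, and loess, 9 of the 26 higher genes and 3 of the 11 lower genes still passed. Among these were Trpm2, Kcne3, Chrna9, Kcnj8, Kcna1, Trpc1, Trpc2 and Kcnk6, and Kcnk1, Trpv4 and Gria3. Clcn5 was called in addition, as lower. The log2 ratio of Kcnj8 was 3.24 in this setting and that of Trpm2 2.81, whereas Kcnn2 went to 0.40 (adjusted p = 0.106) and Kcnab1 to -1.08 (adjusted p = 0.157).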

How the data were processed

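The authors hybridized Cy5-labelled RTOC and Cy3-labelled 2D culture RNA to 2 Agilent arrays and ran Feature Extraction (version 11.5.1.1 in the submitters' processing notes, 9.1.3.1 in the file header). The deposited intensity values are background-subtracted, dye-normalized processed signals, with flags for background and outlier spots. The deposited log10 values are log ratios of the same signals.

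Here control and outlier spots (1 and 5) were left out, the log2 intensities of the 4 channels were quantile normalized as in the methods, spots of a probe were averaged, and log2 Cy5 over Cy3 was tested against 0 with limma 3.58.1 (R 4.3.3; intercept, eBayes, 1 residual and 4.5 prior degrees of freedom) where either channel passed the background flag on each array. A gene was read by its brightest probe. The fit was tested on simulated data. Bounds were computed after normexp, loess and Aquantile: the mean signal of the bright culture against that of the dim one, raised on each array to the lowest signal well above background. Of 340 probes, 259 matched RefSeq by accession, 78 by symbol and 3 by an older symbol.

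Named were Chrna9, up to 15 highest and 15 lowest called genes, genes with arrays or probes of opposite sign, and called genes of the lists; others, such as Kcnj15, were named after their values were seen. Some genes that the rule names are counted but not reported here by name. The members and lists were chosen with earlier results of these data known. Precision is limited by the 2 arrays. The cultures of an array share its number, so the ratio within an array pairs them.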

Additional observations from a re-analysis of the deposited data

How the results depend on the processing

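With 2 arrays and 1 residual degree of freedom, every p-value leans on the spread shared by all probes, and dim genes have only bounds. With 1 probe per gene, the shares above background were 33.8% and 32.4% in 2D culture and 40.2% and 47.1% in RTOC (E14.5 and E15.5), and with the weaker flag 51.8%, 49.7%, 52.4% and 60.9%. The count of 26 higher genes became 9 after normexp and loess. The 11 lower genes became 4 after normexp and loess and 7 by a rule of at least 2-fold on both arrays. A separate fit of only the probes with all 4 channels above background called 12 higher and 11 lower. Of these, 11 and 8 were also called in the fit over all tested probes. Without the pairing of the cultures within an array (no replicate block), limma called 21 higher and 3 lower. With no filter on dim probes limma called 0 and 0 of 203 genes, against 28 and 29 at an unadjusted p under 0.05. The paper's methods name Student's t-test in general and no test for the arrays. A t-test of the 2 ratios of each gene, run here, called 0 and 0 after Benjamini-Hochberg adjustment, and 9 and 9 unadjusted. The cause of these losses was not tested. Median centring (31 and 8), the series values as deposited (28 and 11), outlier spots kept (26 and 11), trend and robust fitting (27 and 12) and the median over a gene's probes (25 and 11) kept each count within 1.5 times. The median ratio of 0.33 was 0.12 after normexp and loess, 0.57 with median centring, which moved the median of all genes from 0.05 to 0.20, and turned to -0.01 with no filter and -0.16 with all 4 channels above background. Leaving out an array gave 0.18 to 0.39. The 27 named genes kept their direction under every alternative run. Several alternatives reused the same ratios, so that the direction could not change in them. Nor could it change when an array was left out, since every called gene had the same sign on both arrays. Adjusted p over the alternatives ran from 3.52e-05 to 0.327 for Chrna9, 2.47e-05 to 0.327 for Trpm2 and 0.000351 to 0.328 for Kcnk1, the highest being that of the t-test of the 2 ratios.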
